A study of Homo sapiens with 2 samples.

Results

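Glutathione transferases were examined in the human hepatocellular carcinoma line HepG2 by the values of 10 genes: the cytosolic GSTA1, GSTA4, GSTM3, GSTM4, GSTP1 and GSTO1, the mitochondrial and peroxisomal GSTK1, and the membrane-bound MGST1, MGST2 and MGST3. All probe sets annotated to these genes were taken, which gave 21 of the 54675 probe sets of the array, and the 10 genes are part of 19775 with a probe set of their own. None of the 21 is shared with another gene in the annotation. Padma 28 is an Indo-Tibetan preparation of powdered plants. Cells were exposed for 18 h to its ethanolic extract at 218 μg/ml, or to 0.9% ethanol (EtOH) alone as the solvent control. RNA came from 3 cultures pooled per treatment and was measured on 1 oligonucleotide array (Affymetrix U133 Plus 2.0) each, so no spread between cultures and no p-value can be given, and differences between the cultures and effects of the extract cannot be told apart.

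Glutathione transferases join the thiol of glutathione, a small peptide, to reactive electrophiles, and the liver uses them in the second phase of detoxification. The cytosolic enzymes are dimers grouped by sequence into classes such as alpha, mu, pi, omega, theta and zeta. The kappa enzyme has a separate fold, and the microsomal transferases are integral membrane proteins of another superfamily. Several of the genes carry antioxidant response elements, the sites bound by the transcription factor Nrf2, and human adult hepatocytes are known for abundant alpha class transferases and little of the pi class enzyme.

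The values are log2 expression levels, and a log2 difference is Padma 28 minus EtOH. The limit for a signal well above background was 4.35 on the Padma 28 array and 4.25 on the EtOH array, which is 2 log2 units above the most frequent value of each array. Of the 21 probe sets, 15 lay above these limits on both arrays, with no value under 6.85, and 6 lay below them on both, at 1.86 to 3.37. For GAPDH, the 3′ probe set exceeded the 5′ one by 0.04 with Padma 28 and by 0.08 with EtOH on the log2 scale, and for ACTB by 1.13 on each array. Of 10 hepatocyte markers, 9 had a probe set of their own and all 9 were above background on both arrays, with differences of -0.55 to -0.05 on the brightest probe set of each. Over all 22 probe sets of these markers above background on both arrays the differences ran from -1.23, for TF, to 0.27. Of these 22, 20 were below 0 and 2 more than 2-fold lower. Beside this, 58.1% of all genes above background had values above 0, and 0.412% of all probe sets were more than 2-fold lower. The 22 probe sets belong to the same 9 genes and are not separate observations. The part of these differences in the results was not tested. Among the other cell types, 7 of 8 measured leukocyte, endothelial and fibroblast markers were below background on both. The exception, PECAM1, had 6.81 with Padma 28 and 6.49 with EtOH on 1 of its 5 probe sets.

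GSTA1 and GSTA2, the main alpha class transferases of human liver, are neighbours with nearly the same promoter. The windows below run from 250 bases before to 50 bases after the start site (RefSeq, GRCh38.p14), GSTA1 at chr6:52803767-52804066 and GSTA2 at chr6:52763426-52763725, both on the minus strand. They are shown because the array annotation used here has a probe set for GSTA1 and none for GSTA2. Capitals in the GSTA2 line mark the bases that differ from GSTA1 at the same position.
GSTA1: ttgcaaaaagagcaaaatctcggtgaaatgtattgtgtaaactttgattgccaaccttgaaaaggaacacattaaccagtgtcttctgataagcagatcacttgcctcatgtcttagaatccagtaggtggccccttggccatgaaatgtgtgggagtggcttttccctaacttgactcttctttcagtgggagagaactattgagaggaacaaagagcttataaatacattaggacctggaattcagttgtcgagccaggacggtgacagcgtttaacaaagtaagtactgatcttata
GSTA2: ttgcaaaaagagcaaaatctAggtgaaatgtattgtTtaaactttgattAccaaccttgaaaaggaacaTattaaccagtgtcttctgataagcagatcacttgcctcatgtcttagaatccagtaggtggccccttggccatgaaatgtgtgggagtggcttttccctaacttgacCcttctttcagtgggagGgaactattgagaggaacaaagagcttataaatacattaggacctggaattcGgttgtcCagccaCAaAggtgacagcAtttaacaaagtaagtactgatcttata
Position by position, 288 of 300 bases were identical (96.0%), against 28.7% for GSTA3, 23.7% for GSTA4 and 22.3% for GSTA5 in the same comparison with GSTA1. The windows were compared without alignment, so a shifted stretch of similar sequence counts as different. The low shares thus do not show that these promoters are unrelated. Whether the GSTA1 probe set also took up RNA of GSTA2 was not tested.

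The core of the antioxidant response element, TGACNNNGC, was searched on both strands of the same windows. Of the 10 genes, 9 had at least 1 window in the table, 11 windows in all, and MGST2 is named only. A match was found in 4 of the 9 genes, GSTA4, GSTO1, GSTP1 and MGST1, where 16.1% of all 27305 genes and 13.3% of all 35116 windows hold it. The matches are printed in capitals with up to 25 bases on each side, since these genes differ widely in their values below. GSTA4 lies on the minus strand and its stretch at chr6:52995260-52995318, and the others are on the plus strand, GSTP1 at chr11:67583721-67583779, GSTO1 at chr10:104254642-104254699 and chr10:104254706-104254764, and MGST1 at chr12:16347120-16347164.
GSTA4, 9 bases upstream: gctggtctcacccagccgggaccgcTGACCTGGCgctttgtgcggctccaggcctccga
GSTP1, 66 bases upstream: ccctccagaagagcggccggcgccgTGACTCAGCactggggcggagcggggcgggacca
GSTO1, 226 bases upstream: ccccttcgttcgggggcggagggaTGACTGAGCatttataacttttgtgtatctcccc
GSTO1, 161 bases upstream: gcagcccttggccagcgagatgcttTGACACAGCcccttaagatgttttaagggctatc
MGST1, from base 31 after the most upstream of 3 starts: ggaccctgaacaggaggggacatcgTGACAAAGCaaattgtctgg
The core of the xenobiotic response element, the site of the aryl hydrocarbon receptor, was searched as GCGTG on both strands. It was found in GSTM3, GSTM4 and MGST3 of the 9 genes, and in 40.6% of all genes. No window of the 9 genes held both motifs, and GSTA1 and GSTK1 held neither. The share of all windows with both motifs or with neither was not computed, so nothing is read from this. A match is a description of the letters only, and sites outside the windows were not searched.

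With Padma 28, GSTA1 and MGST1 were more than 2-fold higher on their brightest probe set and none of the 10 genes was more than 2-fold lower. Over all genes, the share more than 2-fold higher was 0.875% and the share more than 2-fold lower 0.384%, and of the 10361 genes above background on at least 1 array 1.57% were more than 2-fold higher. Counted as probe sets, 3 of 21 were more than 2-fold higher and 0 lower, beside 0.646% and 0.412% of all probe sets. GSTA4 was next, at 1.56-fold. With GSTA4, 3 of the 9 genes above background were more than 1.5-fold higher, where 6.49% of all genes above background were. The median over the 21 probe sets was 0.12, and over the 15 above background 0.32, against -0.02 over all probe sets and 0.02 over all those above background. The members were chosen with results of these arrays known.

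**Figure D1:**
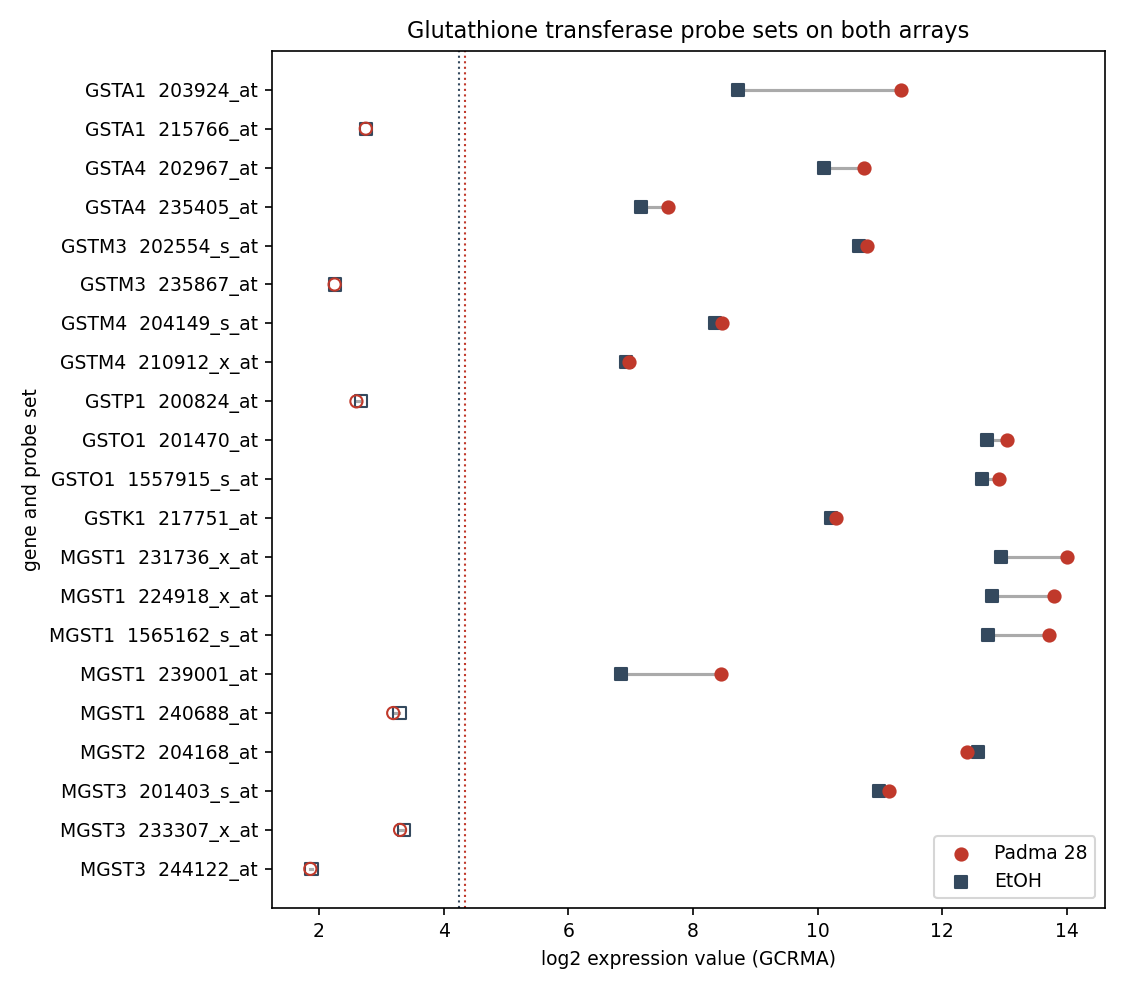
Log2 expression value (horizontal axis) of each of the 21 probe sets of the 10 transferase genes (vertical axis), with 1 array per treatment. Red circles are Padma 28 and dark squares EtOH, open symbols lie under the background limits on each array, and dotted lines mark those limits of 4.35 and 4.25; the longest lines are those of GSTA1 203924_at and MGST1 239001_at.

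The alpha class held the largest difference. GSTA1, the major transferase of human hepatocytes and an isomerase of steroid intermediates, had a log2 value of 11.33 with Padma 28 and 8.72 with EtOH on probe set 203924_at. This is a log2 difference of 2.61, or 6.09-fold, and GSTA1 ranked 10 from the top among all 19775 genes. Its other probe set, 215766_at, was below background on both arrays, with 2.75 with Padma 28 and 2.76 with EtOH. The difference of GSTA1 on the array thus rests on 1 probe set. In the paper, quantitative PCR gave a significant rise, with primers that detect GSTA1, GSTA2, GSTA3 and GSTA5 together. In RNA of whole cultures, a change in the share of cells expressing a gene and a change in RNA per cell cannot be told apart.

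GSTA4, an alpha class enzyme that conjugates the lipid peroxidation product 4-hydroxynonenal, was higher on both of its probe sets. Probe set 202967_at had 10.74 with Padma 28 and 10.10 with EtOH, a log2 difference of 0.64. Probe set 235405_at had 7.60 with Padma 28 and 7.17 with EtOH, a log2 difference of 0.43. The 2 probe sets thus differed from each other by 0.21. Among genes above background, 5.20% had a difference at least as high as that of GSTA4.

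Among the 3 membrane-bound transferases MGST1 alone passed 2-fold. MGST1, which acts on the endoplasmic reticulum and the outer mitochondrial membrane and also reduces lipid hydroperoxides, was higher on each of its 4 probe sets above background. Probe set 231736_x_at had 14.00 with Padma 28 and 12.94 with EtOH, or 2.09-fold. Probe set 224918_x_at had 13.79 with Padma 28 and 12.80 with EtOH, or 1.98-fold. These values and those of 1565162_s_at, with 13.72 with Padma 28 and 12.74 with EtOH, lay on either side of the 2-fold line within a narrow range, from 0.98 to 1.06 on the log2 scale. Probe set 239001_at, with 8.45 with Padma 28 and 6.85 with EtOH, gave a larger ratio of 3.01-fold. The fifth, 240688_at, was below background on both arrays. MGST1 thus passed 2-fold on its brightest probe set, and with the median over all of its probe sets, at 0.99, it did not. That median includes the probe set below background, and over the 4 above background the median was 1.02.

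MGST2, which can form leukotriene C4 from leukotriene A4, was the only member above background with a value below 0. Its probe set 204168_at had 12.40 with Padma 28 and 12.58 with EtOH, a log2 difference of -0.18. Differences at least as far from 0 were found for 51.5% of the genes above background. MGST3, a microsomal enzyme with transferase and peroxidase activity, had 11.14 with Padma 28 and 10.99 with EtOH on 201403_s_at, a log2 difference of 0.15, while its other 2 probe sets were below background on both arrays.

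The mu class members stayed close to the solvent control. GSTM3 had 10.79 with Padma 28 and 10.67 with EtOH on 202554_s_at, a log2 difference of 0.12. Its other probe set was below background on both arrays. GSTM4 had 8.46 with Padma 28 and 8.36 with EtOH on 204149_s_at, and 6.98 with Padma 28 and 6.92 with EtOH on 210912_x_at. These log2 differences of 0.10 and 0.06 are smaller than the median disagreement of 0.14 between the 2 brightest probe sets of a gene, taken over 4912 genes. Probe sets of the _x_at type hold probes that can also bind other transcripts, and genes of the mu class are similar in sequence, so their values may share signal.

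GSTO1, an omega class enzyme that reduces dehydroascorbate, had similar small differences on both of its probe sets. Probe set 201470_at had 13.04 with Padma 28 and 12.72 with EtOH, a log2 difference of 0.32. Probe set 1557915_s_at had 12.91 with Padma 28 and 12.63 with EtOH, a log2 difference of 0.28. Of all genes above background, 19.4% had a difference at least as high as the 0.32 of GSTO1. GSTK1, the kappa class enzyme, had 10.30 with Padma 28 and 10.21 with EtOH, a log2 difference of 0.09.

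GSTP1, the pi class transferase that is the main form in many tissues outside the liver, was below background on both arrays. Its single probe set had 2.60 with Padma 28 and 2.67 with EtOH, and no fold change is given. GSTP1 is thus among the 4 genes with a match to the antioxidant response element core, and the only one of them below background.

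In order of the log2 difference, GSTA1 came before MGST1, GSTA4, GSTO1, MGST3, GSTM3, GSTM4, GSTK1 and MGST2, with GSTP1 left out because it was below background on both arrays. Disagreement between probe sets of the same gene had a median of 0.14 and a 95th percentile of 0.59. GSTA1 lay above MGST1 by more than 0.59, and every other pair of neighbours in this order differed by less. This disagreement comes from the same arrays and holds no spread between cultures. The order, with the place of GSTA1, was thus not tested. Of the 9 members above background 8 had values above 0 (88.9%), as did 58.1% of all genes above background.

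**Figure D2:**
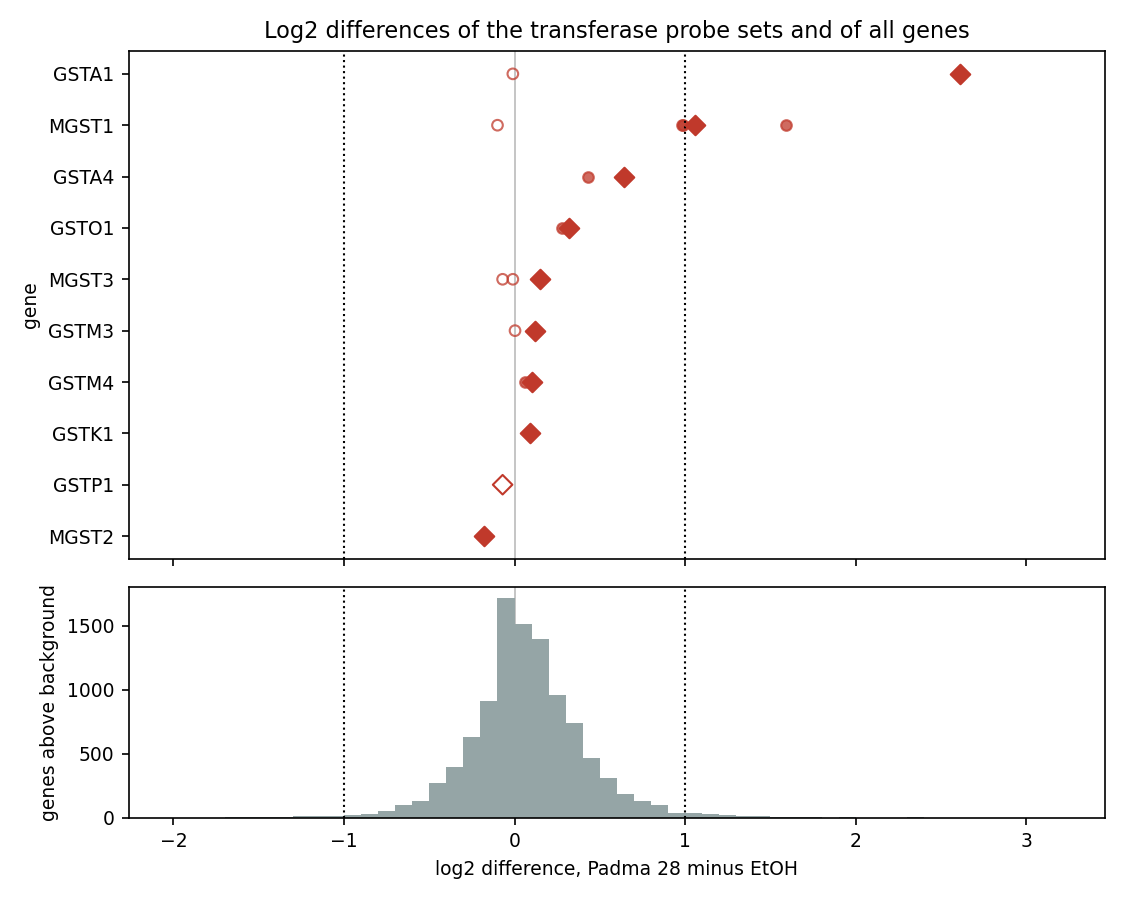
Upper panel, log2 difference, Padma 28 minus EtOH (horizontal axis), of every probe set of the 10 genes (vertical axis), with a diamond for the brightest per gene, circles for its others, and open symbols where neither array was above background. Lower panel, the number of genes above background in bins of 0.1, with 1 array per treatment; dotted lines mark 2-fold, GSTA1 at 2.61 lies far to the right, 3 symbols of MGST1 lie at the 2-fold line, and 6 genes above 3.2 and 6 below -2 fall outside the range drawn.

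The alpha and the mu class genes each lie in a cluster. In the alpha cluster GSTA1 alone of the 3 genes measured passed 2-fold, beside 0.875% of all genes higher. On chromosome 6 (GRCh38.p14), GSTA1 spans 52791371 to 52803816 and GSTA4, at the far end, 52977953 to 52995284. GSTA3 lies between them and was below background on both arrays, with 3.60 with Padma 28 and 3.29 with EtOH. GSTA2 and GSTA5 have no probe set in the annotation. In the mu cluster on chromosome 1, from GSTM4 at 109656099 to GSTM3 at 109741038, the 4 genes above background had log2 differences of 0.03 to 0.20. GSTM2 had 8.55 with Padma 28 and 8.35 with EtOH. GSTM1 had log2 differences of 0.03 and 0.28 on its 2 probe sets, and GSTM5 was below background on both arrays. GSTM1 and GSTM2 were measured only on probe sets of the _x_at type, so their signal may come in part from other mu class genes, which was not tested.

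**Figure D3:**
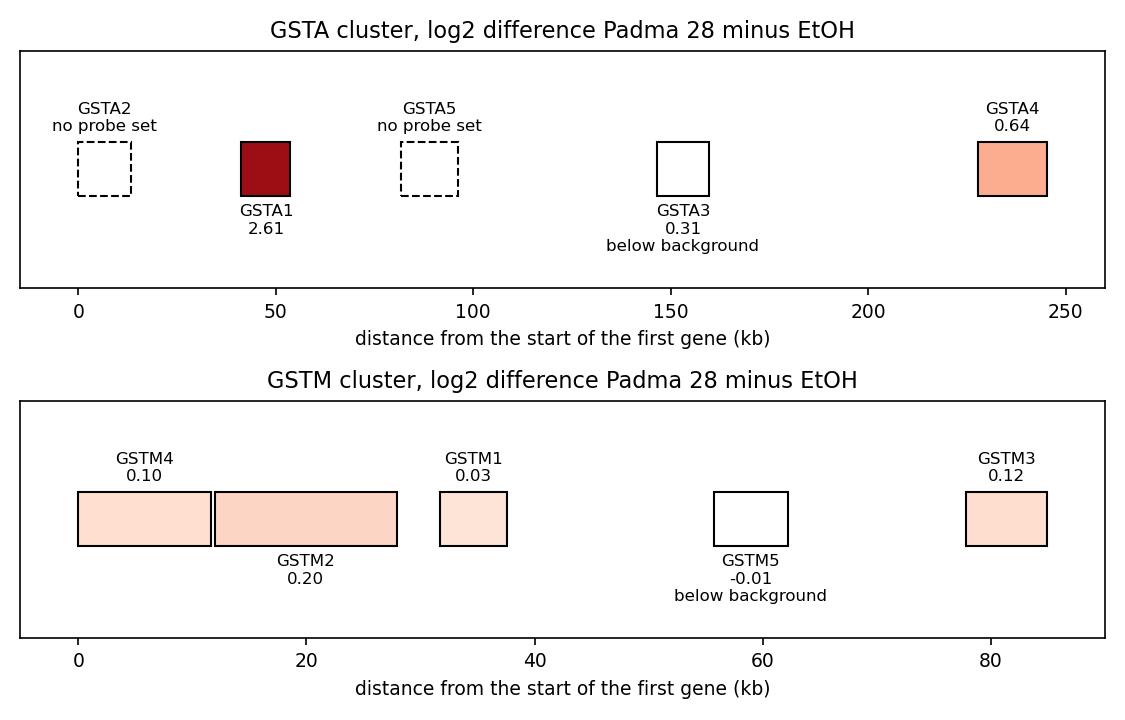
Genes of the alpha cluster (upper panel) and of the mu cluster (lower panel) drawn to scale by distance in kb from the start of the first gene, with the log2 difference, Padma 28 minus EtOH, of the brightest probe set from 1 array per treatment. Darker red is a larger difference, white boxes are below background on both arrays and dashed boxes have no probe set; GSTA1 at 2.61 lies 41.3 kb from the start of GSTA2, and the mu genes above background lie between 0.03 and 0.20.

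Outside the 10 members, no gene of the wider transferase family passed 2-fold, beside 0.875% of all genes higher and 0.384% lower. With so few genes measured, this is close to the share over all genes. Of 17 further genes, 14 had a probe set of their own and 5 of these were above background. All 5 had values above 0, from 0.03 upwards, with a median of 0.20. Of all genes above background, 58.1% had values above 0, and their median was 0.06. With 5 genes, nothing is read from this count. GSTZ1, the maleylacetoacetate isomerase of tyrosine breakdown, had 8.08 with Padma 28 and 7.70 with EtOH, a log2 difference of 0.38. GSTCD, a protein with a transferase C-terminal domain, had 8.22 with Padma 28 and 7.95 with EtOH, a log2 difference of 0.27, and its second probe set above background was at 0.49. For GSTT1, a theta class transferase, the probe sets went apart. Probe set 203815_at had 10.36 with Padma 28 and 10.26 with EtOH, and 232193_at had 6.81 with Padma 28 and 7.25 with EtOH. Below background on both arrays were GSTA3, GSTM5, GSTO2, GSTT2, GSTT4, the hematopoietic prostaglandin D synthase HPGDS, the prostaglandin E synthase PTGES, the leukotriene C4 synthase LTC4S and ALOX5AP, the 5-lipoxygenase activating protein. GSTT2B, like GSTA2 and GSTA5, had no probe set of its own.

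Among the genes that supply glutathione, the differences reached further than among the transferases. In the list of glutathione supply 4 of 7 genes were more than 2-fold higher and none lower, with a median log2 difference of 1.10. All 7 were above background, and of all genes above background 1.57% were more than 2-fold higher. Those more than 2-fold higher were SLC7A11, the cystine carrier, at 9.23-fold, and 3 further genes. The 3 were GCLM and GCLC, the modifier and catalytic subunits of glutamate-cysteine ligase, at 3.44-fold and 2.60-fold, and CTH, which releases cysteine from cystathionine, at 2.15-fold. Glutathione reductase GSR was at a log2 difference of 0.73 and glutathione synthetase GSS at 0.40. GGCT, which breaks down gamma-glutamyl peptides, was at 0.19.

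Of 7 conjugate exporters, 6 were measured, 2 passed 2-fold upwards and none downwards, with a median of 0.65. All 6 were above background, and of all genes above background 1.57% were more than 2-fold higher. Over all genes, 0.384% were more than 2-fold lower. ABCC3, a basolateral pump of organic anions, had 8.75 with Padma 28 and 6.91 with EtOH, a log2 difference of 1.84, while its 4 probe sets above background ranged from 0.19 to 1.84. Without probe sets of the _x_at, _s_at and _a_at types ABCC3 was at 0.19 and no longer passed. ABCC4, an exporter of organic anions, had 7.49 with Padma 28 and 6.36 with EtOH on the only one of its 4 probe sets above background on both arrays. This is a log2 difference of 1.13, and with the median over all 4, at 0.90, ABCC4 did not pass. That median includes 1555039_a_at and 243928_s_at, both below background on both arrays. It also includes 1554918_a_at, which was above background with Padma 28 only, at 5.06 against 2.99 with EtOH. ABCG2, an exporter of xenobiotics, was at a log2 difference of 0.86, the canalicular pump ABCC2 at 0.44 and ABCC5 at 0.43.

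The enzymes that turn glutathione conjugates into mercapturates had values on both sides of 0. Of 14 genes on this list 11 were measured and 5 were above background, with a median of 0.00 over the 5. None passed 2-fold, beside 0.875% of all genes higher and 0.384% lower. Probe sets that the annotation shares between genes were not counted here. ACY1, an aminoacylase, is therefore counted as below background, by its only own probe set, with 2.23 with Padma 28 and 2.24 with EtOH. On shared probe sets, chosen after their values were seen, ACY1 was above background, with 11.46 with Padma 28 and 11.19 with EtOH on 202740_at. NAT8, an N-acetyltransferase of cysteine conjugates, had 7.53 with Padma 28 and 7.76 with EtOH on the shared 210289_at. GGT7, of the gamma-glutamyltransferase family, had 7.99 with Padma 28 and 8.44 with EtOH on its brightest probe set, a log2 difference of -0.45. Its other probe sets, also above background, were at -0.08 and -0.06. ANPEP, an aminopeptidase of the cell surface, had 11.79 with Padma 28 and 12.22 with EtOH. CNDP2, a cytosolic dipeptidase, was at 0.38. Among 12 other glutathione-using enzymes GPX2, a glutathione peroxidase, was 2.32-fold higher on its brightest probe set. None was more than 2-fold lower, and the median was 0.00. All 12 were above background, and of all genes above background 1.57% were more than 2-fold higher. Over all genes, 0.384% were more than 2-fold lower. The other probe set of GPX2 had 6.70 with Padma 28 and 5.94 with EtOH, a log2 difference of 0.76, and with the median of both, at 0.99, GPX2 did not pass. In the paper, quantitative PCR of GPX2 in independent experiments showed no significant difference. The secreted peroxidase GPX3 was at -0.61, the glutaredoxin GLRX2 at 0.50 and the peroxidase GPX1 at -0.49. The differences between these lists were not tested, since each treatment has 1 array.

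**Figure D4:**
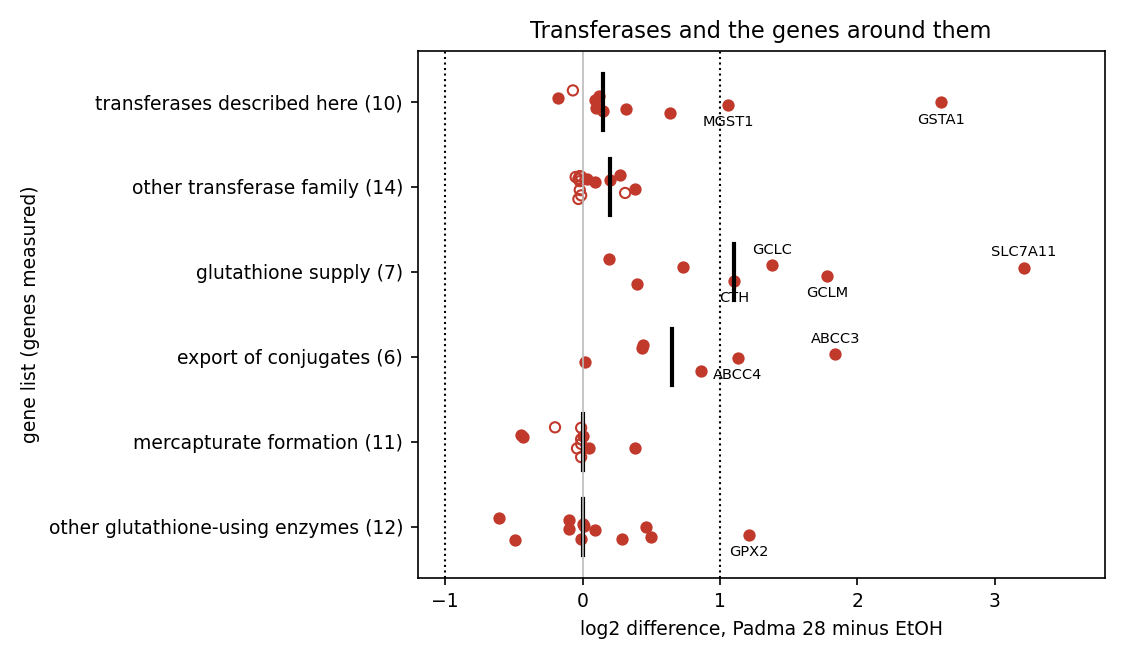
Log2 difference, Padma 28 minus EtOH (horizontal axis), of the brightest probe set of each gene in 6 lists (vertical axis, number of genes measured in brackets), from 1 array per treatment. Points stand for genes, open ones where neither array was above background, black bars for medians of the genes above background and dotted lines for 2-fold; the bar of glutathione supply lies at 1.10 and that of mercapturate formation at 0.00.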

How the data were processed

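RNA of 3 pooled HepG2 cultures per treatment was measured on 1 array each (Affymetrix U133 Plus 2.0). The deposited table holds log2 expression values of all 54675 probe sets, which the authors had made by GCRMA, which corrects the background from probe sequences, equalises the distributions by quantiles and summarises probes by median polish. The submitters' processing notes list R 2.15.1 and GCRMA 2.28.0, where the methods give earlier versions. Probe sets were not filtered beforehand, although the methods speak of an unspecific filter. The labels give 6 h between seeding and treatment, the paper a longer time.

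The difference Padma 28 minus EtOH was taken per probe set with a threshold of 2-fold, as in the methods. Genes were named from the platform annotation, updated through Entrez identifiers (GRCh38.p14). A gene was represented by the brightest of its own probe sets. Background limits were the most frequent value in bins of 0.1 plus 2 log2 units. The number of arrays limits the precision, and quantile normalization hides a shift common to all genes.

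Members, lists and motifs were chosen with earlier results of these data known. Named were all members, all further family genes, and in each pathway list the genes past 2-fold and up to 3 others with the largest differences above background. The alternatives were other rules for the probe set of a gene, 3 normalizations, added constants, probe set types, background limits and, added after the data were seen, a threshold of 1.5-fold. Steps were tested on simulated data. Values were computed in Python 3.11.15 (pandas 2.3.3, numpy 2.4.6), loess curves with statsmodels 0.14.6, and figures with matplotlib 3.10.9.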

Additional observations from a re-analysis of the deposited data

How the results depend on the processing

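Of 135 recomputed values 129 kept their side of the 2-fold line or, for counts, stayed within 1.5 times of the value above. For the median over member probe sets, the rule was a move smaller than the median probe set disagreement of 0.14. With each array centred on its median 5 probe sets of the members were more than 2-fold higher, where the deposited values gave 3, since those of MGST1 at 0.98 and 0.99 crossed the line. When a gene was represented by the median of its probe sets, 1 gene passed 2-fold among the members and in the wider family, where the brightest gave 2, because MGST1 was then at 0.99. In the pathway lists 7 genes passed 2-fold, and 5 with that median, where ABCC4 was at 0.90 and GPX2 at 0.99. With 16 or 64 added on the linear scale 6 passed, without ABCC4 at 0.99 or 0.73, and without the _x_at, _s_at and _a_at probe sets 6 passed, without ABCC3 at 0.19. That last choice left 2 member probe sets past 2-fold. The median over probe sets above background was 0.32 in place of 0.12. With the threshold at 1.5-fold, 3 members passed. With the background limit set 1 log2 unit above the most frequent value, 2 member probe sets lay above it on 1 array only, against 0 at 2 or 3 log2 units. GSTA1 ranged from 1.30, when its probe set below background was averaged in, to 2.66, and GSTA4 from 0.54 to 0.69. No paired analysis was possible because each treatment has 1 array, and no replicate could be left out.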

Other observations

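For GCLC and GCLM, noticed after their values were seen, the dimmest probe set gave the largest difference. GCLC was at 1.74 on its dimmest probe set and at 1.38 on its brightest, and GCLM at 2.53 and 1.78. For MGST1 the dimmest of the 4 probe sets above background was at 1.59 and the brightest at 1.06, with the others at 0.98 and 0.99. Other genes went the other way, such as GSTA4, at 0.64 on its brighter and 0.43 on its dimmer probe set, and GPX2, at 1.21 and 0.76. Of 38 genes whose 2 brightest probe sets averaged more than 2-fold higher with Padma 28, the dimmer of the 2 had the larger difference in 22. The medians were 1.34 for the dimmer and 1.21 for the brighter. This count compares the 2 brightest probe sets and not the dimmest with the brightest, so it does not count the pattern above. On that pair MGST1, at 1.06 and 0.99, went the other way, and GSTA4 and GPX2 are not among the 38.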
